A study of Mus musculus with 3 samples.

Results

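The 10 genes described here are Nfe2l2, Keap1, Hmox1, Nqo1, Gclm, Gclc, Txnrd1, Srxn1, Slc7a11 and Sqstm1, the transcription factor Nrf2 with its regulators and its best-known targets. They were taken by gene symbol from a fixed list, and all 10 were found among the 55536 annotated genes of the deposited gene tables, of which 22028 are protein-coding. Chromatin-fraction RNA came from C57BL/6J bone marrow-derived macrophages given lipid A at 100 ng/ml for 15 min. That compound is the membrane anchor of bacterial lipopolysaccharide and activates the receptor TLR4. The 3 biological replicates form 1 group, in which every library carries the same stimulus. No library of resting cells was analysed here, so the values are levels at this time and not responses to lipid A. The replicates share 1 donor label and have separate biosample labels, so the spread between them may be smaller than that between animals.

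Nrf2, the product of Nfe2l2, is a short-lived transcription factor that Keap1 holds in the cytoplasm and marks for degradation. Oxidants and electrophiles modify cysteines of Keap1, after which Nrf2 accumulates, pairs with a small Maf protein and binds antioxidant response elements in front of genes for glutathione synthesis, thiol reduction, quinone reduction and haem breakdown. In macrophages the pathway is known for limiting oxidative damage during inflammation, and Hmox1 is its best-known anti-inflammatory target. RNA on chromatin is enriched in transcripts still being made, so intron sequence is part of what is counted.

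The proximal promoters of 3 members are shown because Srxn1 holds the response-element match with the most fixed letters, and because Nfe2l2 and Slc7a11 are the 2 members whose levels differed most between libraries. Each sequence is the 250 bases before the RefSeq start in GRCm38.p6, 5′ to 3′ on the strand of the gene, with motif matches in capitals. In Nfe2l2 the capitals mark TGACNNNGC, the core of the element. In Srxn1 they mark TGAGNNNGC on both strands, the downstream match being also TGANTCAGC, the element that overlaps an AP-1 site. In Slc7a11 they mark TGAGNNNGC on the reverse strand and TGATGCAA, an amino acid response element, once on each strand.
Nfe2l2, chr2:75704664-75704913, minus strand: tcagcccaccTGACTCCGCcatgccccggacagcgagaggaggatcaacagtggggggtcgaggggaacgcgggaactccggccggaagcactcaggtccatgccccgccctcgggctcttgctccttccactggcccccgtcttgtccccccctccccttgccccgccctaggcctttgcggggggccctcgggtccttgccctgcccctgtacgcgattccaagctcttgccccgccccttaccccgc
Srxn1, chr2:152105274-152105523, plus strand: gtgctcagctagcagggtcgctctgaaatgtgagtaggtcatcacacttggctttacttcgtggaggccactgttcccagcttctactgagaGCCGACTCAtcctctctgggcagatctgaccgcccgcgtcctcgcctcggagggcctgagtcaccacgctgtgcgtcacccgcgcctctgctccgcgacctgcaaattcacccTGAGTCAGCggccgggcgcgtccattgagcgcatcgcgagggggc
Slc7a11, chr3:50443614-50443863, minus strand: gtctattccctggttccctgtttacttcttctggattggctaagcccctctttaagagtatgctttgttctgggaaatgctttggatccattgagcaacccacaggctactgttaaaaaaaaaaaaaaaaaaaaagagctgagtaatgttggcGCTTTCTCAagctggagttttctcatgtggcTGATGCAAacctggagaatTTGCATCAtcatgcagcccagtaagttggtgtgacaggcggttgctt

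The RefSeq table held 10 windows for 8 of the members, with 3 alternative starts of Txnrd1; Hmox1 and Gclc had no entry. TGACNNNGC, searched on both strands, was present in 3 of the 10 windows: 240 bases before the start of Nfe2l2, 134 bases before that of Gclm and 92 bases before the second start of Txnrd1. It was present in 10.2% of all 32851 promoter windows of the same length. TGAGNNNGC was found in the windows of Slc7a11, 97 bases before the start, and Srxn1, 158 and 45 bases before the start, against 14.4% of all windows. TGANTCAGC was found in Srxn1 alone among the 10 windows, against 1.02% of all windows, and TGATGCAA in Slc7a11 alone, 66 and 47 bases before the start, against 0.791% of all. These 3 further motifs were searched after the promoter sequences had been seen. A match describes the letters only, and the motifs overlap in part.

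Depth in replicates 1, 2 and 3 was 10974934, 21376404 and 14376665 expected counts, and protein-coding genes took 23.9%, 16.7% and 25.3% of the TPM (transcripts per 1000000). Starting RNA was 1 µg, 250 ng and 500 ng. Of the macrophage markers, 8 of 8 reached 1 TPM in every library, with summed levels of 502 to 896 TPM. No neutrophil, T or NK cell, B cell, stromal or endothelial marker reached that level, and Elane, Mpo, Ly6g, Cd3e, Cd3g and Ncr1 were at 0. The erythroid marker Alas2 did so at a mean of 7.74 TPM, while Hba-a1 was at 0.

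Nrf2 pathway genes spanned a wide range of chromatin RNA levels. A gene is called detected where its TPM is 1 or more in each of the 3 libraries. By that rule 8 of the 10 members were detected, beside 42.4% of all protein-coding genes. At 5 TPM 6 members passed, beside 25.7%, and 9 members had more than 3 expected counts in every library, beside 54.6%. In the second quantification, 9 members reached 1 TPM throughout, beside 53.1%. That quantification is another set of estimated counts per transcript for the same 3 libraries, so it does not replicate the first. Slc7a11 missed the rule in replicate 2 only, where its 0.9 TPM had a 95% Poisson interval of 0.724 to 1.11 that spans the limit, and Nqo1 missed it in every library. The median of the members' mean levels was 9.18 TPM, beside 0.567 TPM over all protein-coding genes and 10.2 TPM over the detected ones. The members thus sat at the middle of the detected genes, with Sqstm1 and Nfe2l2 far above and Gclm, Gclc and Nqo1 below.

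**Figure D1:**
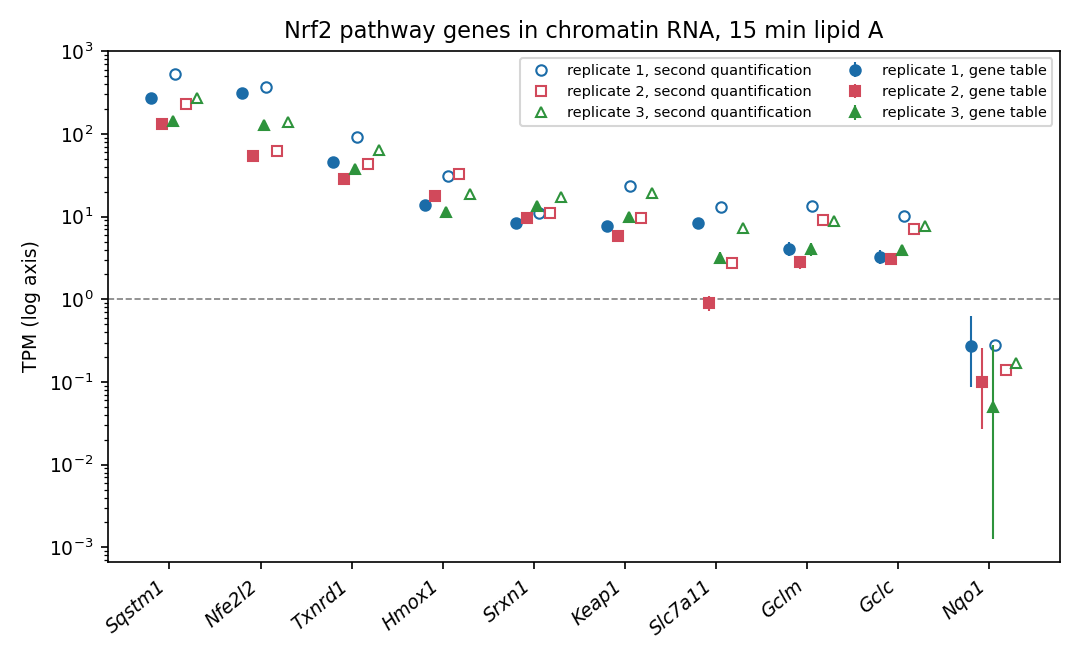
TPM of each member on a log axis, with the genes in order of their mean; filled symbols are the gene table with exact 95% Poisson intervals, open symbols the second quantification, and the dashed line is a TPM of 1. Sqstm1 and Nfe2l2 stood above 50 TPM in all libraries, Nqo1 lay below 1, and replicate 2 of Slc7a11 lay just under the line.

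Sqstm1 and Nfe2l2, both regulators, were the most abundant members, and Keap1 stood far below them. Sqstm1 (chr11:50199366-50210827, mm10, minus strand), the autophagy receptor p62 that draws Keap1 away from Nrf2, had 269.6, 130.6 and 143.6 TPM in replicates 1, 2 and 3, a mean of 181 ± 76.8 TPM (SD, n = 3). Nfe2l2 (chr2:75675513-75704641, minus strand), encoding Nrf2 itself, had 310.9, 53.8 and 129.1 TPM in the same order, a mean of 165 ± 132 TPM (SD, n = 3). The level of Nfe2l2 exceeded that of 99.3% of protein-coding genes, and replicate 1 was 5.78 times as high as replicate 2. Without replicate 1 its mean was 91.4 TPM. The protein-coding gene Mrnip, on the opposite strand, shares 580 exon bases with Sqstm1 and had 1.08, 0.87 and 0.68 TPM. Keap1 (chr9:21229730-21239361, minus strand), the adaptor that hands Nrf2 to a cullin ubiquitin ligase, had 7.8, 5.81 and 9.94 TPM, a mean of 7.85 ± 2.07 TPM (SD, n = 3). Summed over all isoforms, Keap1 RNA was thus far scarcer on chromatin than Nfe2l2 RNA in every library. Per length, the level of Keap1 was 2.51% of that of Nfe2l2 in replicate 1, 10.8% in replicate 2 and 7.7% in replicate 3. In the second quantification the level of Keap1 was 11.9 ± 4.93% of that of Nfe2l2 (SD, n = 3). Most of the Nfe2l2 level, 78.7% on average, was on the non-coding isoform Nfe2l2-202, which is largely intron sequence. The coding isoform Nfe2l2-201 alone had 50.8, 12.4 and 31.5 TPM in replicates 1, 2 and 3. That is nearer to the level of Keap1 but above it in each library. Keap1 shares 510 exon bases with the antisense gene Gm16754, which had 2.25, 2.19 and 4.52 TPM, and the use of strand in counting is not given in the sources used here, so the Keap1 level is uncertain by reads of that gene.

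Hmox1, the inducible haem oxygenase that opens haem into biliverdin, iron and carbon monoxide, had 13.98, 17.65 and 11.48 TPM in replicates 1, 2 and 3. Its mean was 14.4 ± 3.1 TPM (SD, n = 3), from 216, 623 and 202 expected counts. The 95% Poisson intervals, which cover counting error only, ran from 12.2 to 16, 16.3 to 19.1 and 9.95 to 13.2 TPM, so replicate 2 stood above both others. The level lay above that of 83.5% of protein-coding genes and of 61.2% of the detected ones. Hmox1 lies at chr8:75093621-75100589 (mm10) on the plus strand and overlaps no other annotated gene. The second quantification gave 27.6 ± 7.78 TPM (SD, n = 3), again with replicate 2 highest, at 33 TPM, against 31.2 in replicate 1 and 18.7 in replicate 3.

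Nqo1 (chr8:107388225-107403206, minus strand), the quinone reductase often used as the readout of Nrf2 activity, was close to the floor in the same chromatin. It had 0.27, 0.1 and 0.05 TPM, from 5, 4 and 1 expected counts. A count of 3 was worth 0.162, 0.075 and 0.15 TPM, so replicate 3 lay under that floor. The Poisson intervals reached at most 0.63, 0.256 and 0.279 TPM. The second quantification placed Nqo1 at 0.28, 0.138 and 0.171 TPM. Both haem and quinone genes lie on chromosome 8, and per length Hmox1 exceeded Nqo1 in each library and in both quantifications.

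The glutathione genes were low to moderate. Gclm (chr3:122245557-122270732, plus strand), the modifier subunit of glutamate-cysteine ligase, had 4.11, 2.79 and 4.05 TPM, a mean of 3.65 ± 0.745 TPM (SD, n = 3). Gclc (chr9:77754535-77794485, plus strand), the catalytic subunit of the same enzyme, had 3.28, 3.07 and 3.97 TPM, a mean of 3.44 ± 0.471 TPM (SD, n = 3). The subunits of this enzyme were thus close in level. Per length, Gclm stood at 125%, 90.9% and 102% of Gclc, so neither was higher in all libraries. The second quantification put Gclm at 125 ± 8.9% of Gclc, above it in each library. Gclm shares 296 exon bases with Gm17494 on the opposite strand, which had 1.23, 0.53 and 1.9 TPM. Slc7a11 (chr3:49892526-50443614, minus strand), the cystine importer that supplies cysteine for glutathione, had 8.45, 0.9 and 3.18 TPM, a mean of 4.18 ± 3.87 TPM (SD, n = 3). These values rest on 303, 90 and 147 expected counts. Replicate 2, with the lowest value, was the deepest library. Without replicate 1 the mean of Slc7a11 was 2.04 TPM.

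Of the thiol reductases, Txnrd1 (chr10:82833951-82897712, plus strand), the cytosolic thioredoxin reductase, had 46.04, 28.81 and 38.13 TPM, a mean of 37.7 ± 8.62 TPM (SD, n = 3). Srxn1 (chr2:152105516-152111376, plus strand), which reactivates over-oxidised peroxiredoxins, had 8.48, 9.69 and 13.37 TPM, a mean of 10.5 ± 2.55 TPM (SD, n = 3). Per length and over all isoforms, Srxn1 stood at 18.4%, 33.6% and 35.1% of Txnrd1, lower in all 3 libraries. Retained-intron isoforms took 83.6%, 63.6% and 69% of the Txnrd1 level in replicates 1, 2 and 3. The ratio is therefore not one of coding isoforms. Within the introns of Txnrd1 lies Eid3, on the same strand and with no shared exon base, which had 59.7, 21.6 and 27 TPM. Intron reads of either gene cannot be told apart there.

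Ordered by mean TPM, the members ran Sqstm1, Nfe2l2, Txnrd1, Hmox1, Srxn1, Keap1, Slc7a11, Gclm, Gclc and Nqo1. The levels sum all isoforms of a gene, including those with intron sequence, and coding isoforms alone were not ordered. Neighbours were taken to differ beyond their spread where the difference of log2(TPM + 1) had the same sign in all 3 libraries and a mean above its SD. That held for 4 of the 9 neighbouring pairs. Nfe2l2 exceeded Txnrd1 by 1.78 ± 0.93, Txnrd1 exceeded Hmox1 by 1.32 ± 0.56, Srxn1 exceeded Keap1 by 0.38 ± 0.27 and Gclc exceeded Nqo1 by 1.96 ± 0.25 (log2 difference, SD, n = 3 each). Sqstm1 and Nfe2l2, Hmox1 and Srxn1, Keap1 and Slc7a11, Slc7a11 and Gclm, and Gclm and Gclc could not be placed apart. With 3 libraries an exact two-sided sign-flip test cannot fall below p = 0.25, so no test of these differences was made.

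By their SD on the log2 scale Nfe2l2 and Slc7a11 differed most between libraries. In RNA of a whole cell population, fewer cells of a type and less RNA per cell cannot be told apart. To set aside the share of TPM taken by non-coding RNA, TPM was rescaled to sum to 1000000 over protein-coding genes. On that scale Nfe2l2 had 1301, 322.8 and 509.9 in replicates 1, 2 and 3. Slc7a11 had 35.4, 5.4 and 12.6. Both genes were thus highest in replicate 1 and lowest in replicate 2, replicate 1 being 4.03 times replicate 2 for Nfe2l2 and 6.55 times for Slc7a11. The ratio of replicate 1 to replicate 2 was lower than that of Nfe2l2 in 99.5%, and than that of Slc7a11 in 99.9%, of the 9345 detected protein-coding genes. Slc7a11, at 0.9 TPM in replicate 2, was itself not among these genes. The detection rule leaves out genes that fall that low in replicate 2, so its percentage is not like for like. The median ratio of the detected genes was 1.01. The SD of log2(rescaled TPM + 1) over the libraries was 1.02 for Nfe2l2, larger than in 98.8% of 569 protein-coding genes within 1 log2 unit of its level, and 1.26 for Slc7a11, larger than in 99.4% of 3413 such genes. The inflammatory genes Il1b, Tnf and Nfkbia, named after their values were seen, had ratios of 6.1, 4.82 and 2.53 between the same libraries. Their ratios of replicate 3 to replicate 2 were 1.08, 1.42 and 1.35, beside a median of 1.07 over the detected genes. For Nfe2l2 and Slc7a11 that ratio was 1.58 and 2.33. Starting RNA was also highest in replicate 1 and lowest in replicate 2, and depth ran the opposite way; their part in the ratios was not tested.

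**Figure D2:**
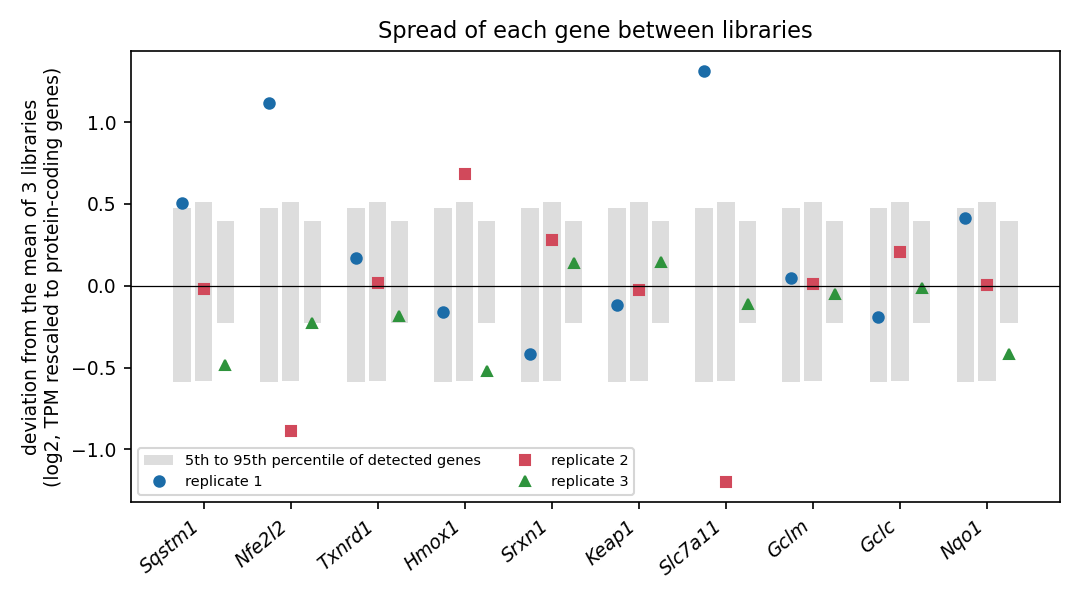
Deviation of each member in each library from its mean over the 3 libraries, in log2 of TPM rescaled to protein-coding genes plus 1; grey bars span the 5th to 95th percentile of the detected protein-coding genes in that library. Replicate 1 of Nfe2l2 (1.12) and Slc7a11 (1.31) lies far above the bar and replicate 2 far below it, replicate 2 of Hmox1 (0.68) lies above it, and the Nqo1 points rest on 1 to 5 counts. Slc7a11 and Nqo1 are not among the detected genes behind the bars.

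Hmox1 ran another way. Its rescaled TPM was 58.5, 105.9 and 45.4, highest in replicate 2, and the ratio of replicate 1 to replicate 2 was 0.552. Only 9.87% of the detected genes had a lower ratio. Its SD of 0.62 was larger than in 94.1% of 3913 genes of similar level. Srxn1 was also lower in replicate 1 than in replicate 2, with 35.5, 58.1 and 52.8. Sqstm1 was highest in replicate 1, with 1128, 783.3 and 567.3. The detected members thus followed no shared order of libraries. Replicate 2 was highest for Hmox1 also in library-scaled expected counts (edgeR's TMM scaling), with 17.3, 35.9 and 13.3. In those counts replicate 2 was highest for Keap1, Gclc, Txnrd1 and Srxn1 too, so they do not set Hmox1 apart. Replicate 1 was highest there for Nfe2l2, Sqstm1 and Gclm.

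On the rescaled scale Gclm, Keap1, Gclc and Txnrd1 varied less between libraries than the members above. Without rescaling this did not hold for Keap1 and Txnrd1, whose SDs of 0.34 and 0.33 in log2(TPM + 1) exceeded those of Hmox1, 0.29, and Srxn1, 0.31. In the second quantification, too, the highest library was 2.46 times the lowest for Keap1 and 2.12 times for Txnrd1, against 1.76 times for Hmox1 and 1.58 times for Srxn1. Gclm had rescaled TPM of 17.2, 16.7 and 16, with an SD of 0.05 on the log2 scale, larger than in only 1.91% of 3609 genes of similar level. It rested on 102, 111 and 121 expected counts, so an SD this small lies within counting error. Without rescaling the SD of Gclm was 0.24, and in the second quantification its highest library was 1.51 times the lowest. Keap1, with rescaled TPM of 32.7, 34.9 and 39.3, had an SD of 0.13, larger than in 14.6% of 4193 genes of similar level. Gclc had 13.7, 18.4 and 15.7, with an SD of 0.2. In TMM-scaled counts Gclc spread more, with 8.18, 15.7 and 11.8 in replicates 1, 2 and 3. Txnrd1 had rescaled TPM of 192.7, 172.9 and 150.6, with an SD of 0.18. On the rescaled scale none of these 4 genes reached 2 times between its highest and lowest library. Over the 8 detected members the median SD was 0.28, beside 0.27 over the detected protein-coding genes. Over all 10 members it was 0.39, and 0.23 without replicate 1. Of the 8 detected members, 2 had a highest rescaled TPM at least 2 times the lowest, Nfe2l2 and Hmox1, beside 15.2% of detected genes, and Sqstm1 lay just under that limit at 1.99 times. The order replicate 1, then 3, then 2 was shown by 1 of the 8, Nfe2l2, beside 28.3% of detected genes, and replicate 1 was at least 2 times replicate 2 in Nfe2l2 alone, beside 5.61%. These shares describe 8 genes and set no group apart.

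Much of the chromatin RNA of several members was assigned to isoforms that include intron sequence. In Nfe2l2, the non-coding isoform Nfe2l2-202 took 83.7%, 77% and 75.6% of the gene's TPM, a mean of 78.7 ± 4.31% (SD, n = 3). This isoform has 2 exons and 1447 bases, of which 1321, or 91.3%, lie inside intron 1 of the coding isoform Nfe2l2-201. Its TPM was 260, 41.4 and 97.6, and that of Nfe2l2-201 was 50.8, 12.4 and 31.5. Both isoforms were therefore highest in replicate 1 and lowest in replicate 2, and on the rescaled scale the span was 4.38 times for Nfe2l2-202 and 2.86 times for Nfe2l2-201. The second quantification gave Nfe2l2-202 a share of 77.3 ± 3.65% (SD, n = 3), and by expected counts, which do not divide by length, its share was 66.8%.

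In Slc7a11 most of the TPM was assigned to isoforms of the 5′ part of the gene. Slc7a11-204, 1 exon of 2677 bases (chr3:50440929-50443605, mm10, minus strand), begins at the start of the gene and runs 2056 bases into intron 1. It took 90%, 78% and 80.5% of the gene's TPM, and retained-intron isoforms together took 93.7 ± 4.06% (SD, n = 3). Only 1 other isoform held a share above 10%, Slc7a11-202, also with a retained intron, at 10.9%. The isoforms differed in how they varied between libraries. Slc7a11-204 had 255.8, 54.4 and 97.5 expected counts in replicates 1, 2 and 3, whereas the coding isoform Slc7a11-201, which has 12 exons, had 19.7, 25.5 and 31.2. On the rescaled scale the highest library was 7.48 times the lowest for Slc7a11-204 and 1.61 times for Slc7a11-201. The second quantification divided the retained-intron share otherwise, with 46.1 ± 13.6% on Slc7a11-204 and 48.7 ± 11.1% on Slc7a11-202 (SD, n = 3 each).

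**Figure D3:**
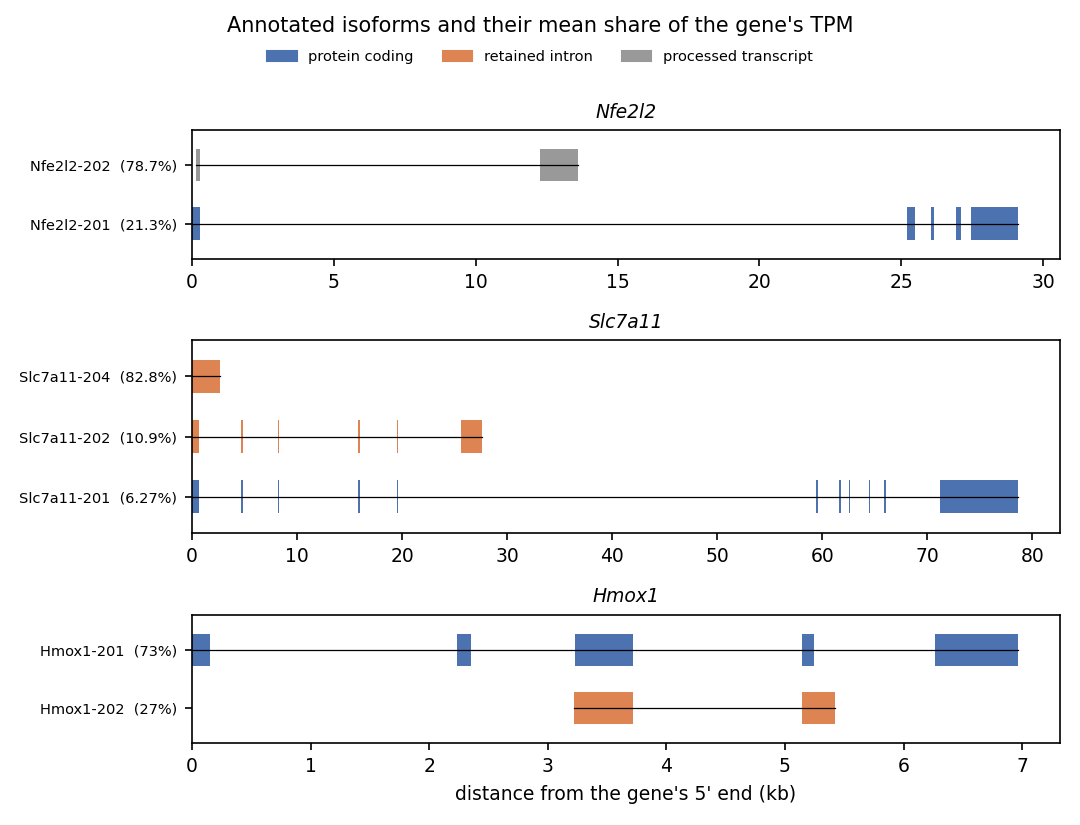
Exons (boxes) of the annotated isoforms with a share above 0, by distance from the 5′ end of the gene in kb, with each isoform's mean share of the gene's TPM in brackets. The leading isoform of Nfe2l2 (78.7%) has its second exon inside intron 1, that of Slc7a11 (82.8%) covers the first exon and the beginning of intron 1, and that of Hmox1 (73%) is the coding one.

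Sqstm1 and Txnrd1 also carried mainly retained-intron isoforms. In Sqstm1 these took 77.1 ± 3.4% of TPM (SD, n = 3), led by Sqstm1-207 at 37.7% and Sqstm1-206 at 28.5%. Only 84 of the 457 bases of Sqstm1-206 lie in introns of the coding isoform Sqstm1-202, against 362 of the 585 bases of Sqstm1-207. Reads from exons therefore weigh in this share. In Txnrd1 they took 83.6%, 63.6% and 69% in replicates 1, 2 and 3, led by Txnrd1-202 at 40.8% and Txnrd1-207 at 20.9%. The Txnrd1 isoforms that begin within 100 bases of its second RefSeq start, the one with a TGACNNNGC match, held 49.6% of the TPM, against 15.1% at the third start and 4.04% at the first. By expected counts the order turned, with 19.1% at the second start, 28.7% at the third and 8.31% at the first. Short isoforms weigh heavily in TPM, and by expected counts the retained-intron share was 31.6% for Sqstm1 and 50.3% for Txnrd1.

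Hmox1 was assigned mainly to its coding isoform. Its coding isoform Hmox1-201 took 71.2%, 73.2% and 74.7% of TPM, a mean of 73 ± 1.75% (SD, n = 3), and Hmox1-202, with a retained intron, took the remaining 27%. Of the 774 bases of Hmox1-202 only 182 lie in introns of Hmox1-201, so reads from the shared exons bear on both. The second quantification set Hmox1-202 higher, at 43.3 ± 4.84% (SD, n = 3). Both isoforms spread between libraries, with the highest 2.29 times the lowest for Hmox1-201 and 2.48 times for Hmox1-202 on the rescaled scale.

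Srxn1 and Gclc were read mainly as coding isoforms in the first table, with 98.7% of TPM on Srxn1-201 and 81.3% on Gclc-201, while Srxn1-203 held 1.29% and Gclc-203 14%. In the second quantification coding isoforms took 74.8 ± 7.87% of Srxn1 but only 44.2 ± 13.3% of Gclc (SD, n = 3 each), so the leading class of Gclc depended on the table. Nqo1 has 1 annotated isoform. In Gclm the retained-intron isoform Gclm-205 led with 26.5% of TPM, ahead of Gclm-201 with 25.8%, but it rested on 4.58, 6.22 and 3.8 expected counts. Coding isoforms of Gclm together took 73.5% of TPM in the first table and 57% in the second quantification. In Keap1 the leading isoforms were Keap1-202 at 32.1% and the 317-base Keap1-203 at 29.9%, which rested on 5, 4 and 4 expected counts. Coding isoforms of Keap1 together took 70.1% of TPM in the first table and 34.7% in the second quantification. Shares of so few counts are not resolved at this depth. Over the 5 members with a retained-intron isoform the median share was 72.1% of TPM, beside 47.8% over 6170 detected protein-coding genes with such an isoform. Slc7a11, 1 of the 5, was itself not detected by the rule that these genes passed. Of the others, Sqstm1 and Txnrd1 stood above 47.8% and Hmox1 and Gclm below it, so the members show no shared direction. Slc7a11 lay above 99% of those genes, Sqstm1 above 91.1%, Txnrd1 above 86.1%, Hmox1 above 20.1% and Gclm above 19.4%. By expected counts the median was 31.6%, beside 30.7% over the same genes.

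**Figure D4:**
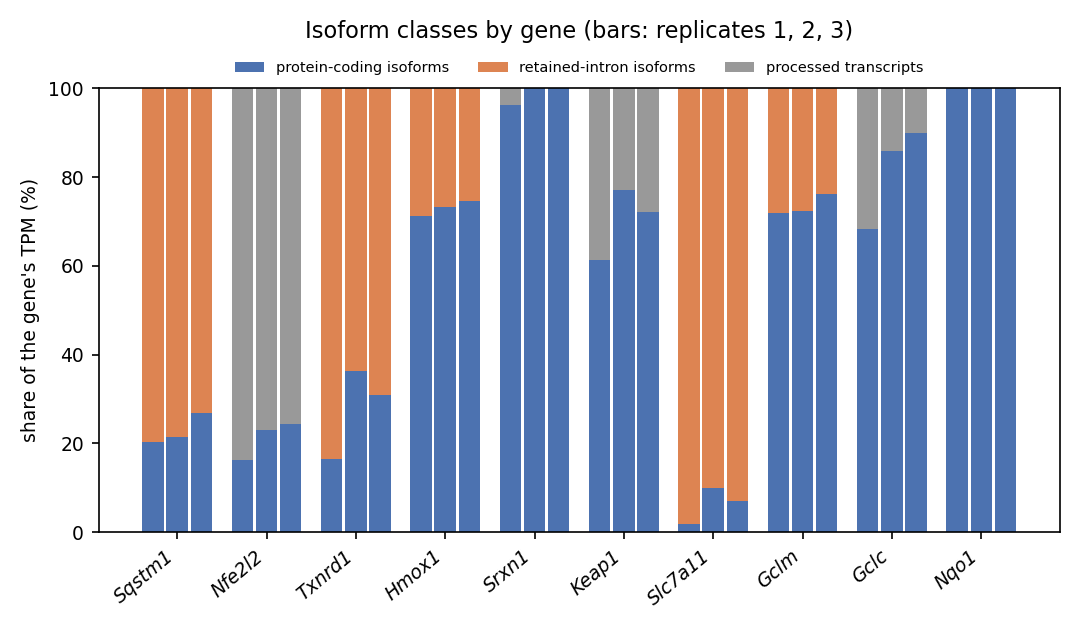
Share of each member's TPM on coding isoforms, retained-intron isoforms and processed transcripts, in the first transcript table, with 1 bar for each of replicates 1, 2 and 3. Slc7a11, Nfe2l2, Sqstm1 and Txnrd1 have most of their TPM outside coding isoforms in every library, and Hmox1, Srxn1, Keap1, Gclm, Gclc and Nqo1 most of it within them.

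The wider pathway was broadly present on chromatin. Of 78 further genes listed by role, 64 were detected, or 82.1%, beside the 42.4% of protein-coding genes given above, and the list was chosen with earlier results of these data known. Of the partners and competitors of Nrf2, 6 of 8 were detected. Mafg, a small Maf partner, was highest at 41.5 ± 10.2 TPM, followed by Bach1, the repressor that competes with Nrf2 at the Hmox1 gene, at 25.9 ± 7.88 TPM, and Bach2 was lowest at 0.293 ± 0.095 TPM (SD, n = 3 each). All 8 ubiquitin ligase parts and kinases of Nrf2 turnover were detected, from Gsk3b at 38.8 ± 8.66 TPM and Cul1 at 30.8 ± 6.73 TPM down to Skp1a at 3.22 ± 0.585 TPM (SD, n = 3 each).

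Of the glutathione genes, 9 of 15 were detected, and 12 of 15 in the second quantification. Slc3a2, the partner chain of Slc7a11, was highest at 69.7 ± 9.56 TPM, with the conjugate exporter Abcc1 at 43.4 ± 10.2 TPM (SD, n = 3 each). Slc3a2 stood at 64.8, 63.6 and 80.7 TPM in replicates 1, 2 and 3 and did not follow Slc7a11 from library to library. Gsta4, a glutathione transferase, had 0 counts in all libraries. Of the thioredoxin and peroxiredoxin genes, 9 of 11 were detected, led by Prdx1 at 89.1 ± 11.3 TPM and Txnip, the thioredoxin inhibitor, at 61.6 ± 20.7 TPM, with Txnrd3 lowest at 0.853 ± 0.257 TPM (SD, n = 3 each). NADPH supply had 5 of 6 detected, with Pgd at 63.5 ± 9.51 TPM, Idh1 at 13.5 ± 3.31 TPM and Me1 at 0.117 ± 0.0666 TPM (SD, n = 3 each).

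All 8 haem and iron genes were detected. The ferritin chains were the highest of the 78, with Fth1 at 675 ± 224 TPM and Ftl1 at 301 ± 43.4 TPM, and the haem transporter Slc48a1 was lowest at 7.86 ± 3.09 TPM (SD, n = 3 each). Of the quinone and xenobiotic genes, 6 of 8 were detected, none above 10 TPM on average, with Ugt1a6a at 9.69 ± 4.91 TPM, Nqo2 at 8.65 ± 4.04 TPM and Aox1 at 0.343 ± 0.0404 TPM (SD, n = 3 each). Nqo2 was thus detected where Nqo1 was not. Of the selective autophagy genes that act with Sqstm1, 13 of 14 were detected, led by Nbr1, a receptor related in function to p62, at 77 ± 17.7 TPM and Atg7 at 59.5 ± 6.13 TPM, with Map1lc3a at 0.67 ± 0.263 TPM (SD, n = 3 each).

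**Figure D5:**
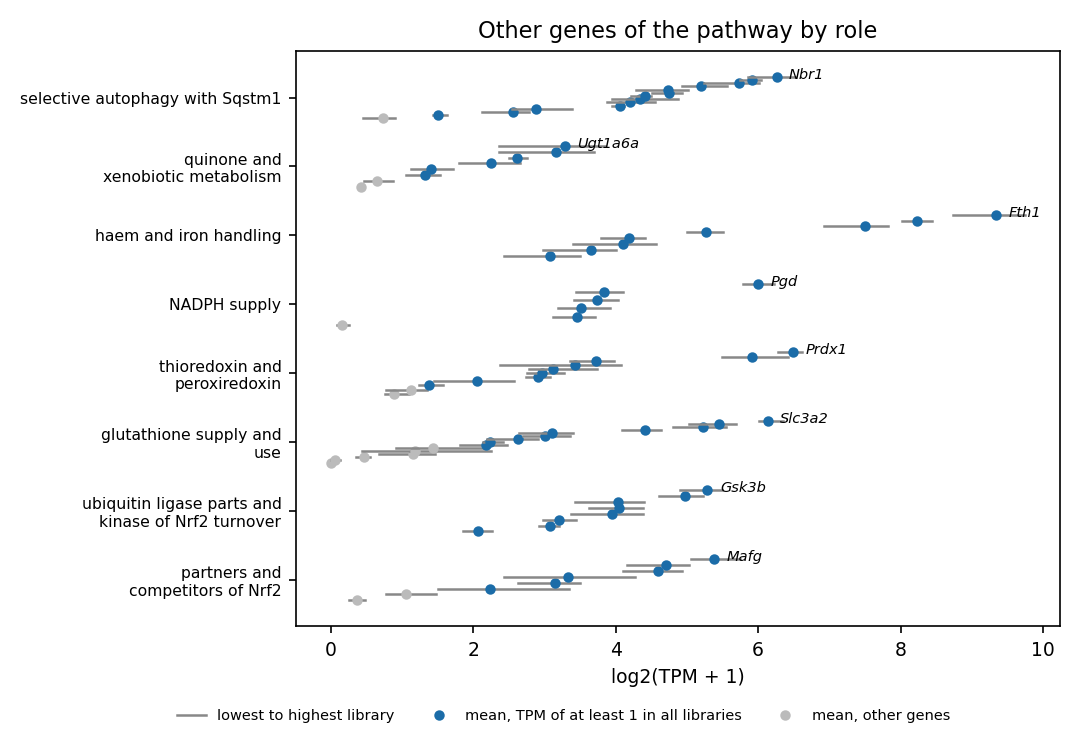
Level of the 78 other pathway genes by role, as log2(TPM + 1); points are means of the 3 libraries, lines run from the lowest to the highest library, grey points are genes not detected by the rule, and the highest gene of each role is named. The haem and iron group reaches highest, with Fth1 at a mean of 9.34, and Gsta4 sits at 0.

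Between libraries, 7 of the 64 detected pathway genes had a highest rescaled TPM at least 2 times the lowest, beside the 15.2% of detected genes given above. They were Maff, Nfe2l3, Gpx1, Txn1, Prdx6, Ugt1a6a and Akr1b8, named after their values were seen. Of the 64 genes, 4 had replicate 1 at least 2 times replicate 2, Maff, Nfe2l3, Prdx6 and Ugt1a6a, a share close to the 5.61% of detected genes. Maff, a small Maf partner of Nrf2, had 38.5, 11 and 10.2 rescaled TPM in replicates 1, 2 and 3, while its relative Mafg had 135.8, 236.4 and 207.5. Small Maf genes thus differed in which library was highest. The ferritin light chain gene Ftl1 was highest in replicate 2, like Hmox1, with 1083, 2073 and 1178, and Fth1 was lowest there, with 3108, 2549 and 3388.

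The protein-coding genes whose levels were most like those of Hmox1 were Ghrl, Aldh7a1 and Rpl18, measured as the largest difference in log2(TPM + 1) over the 3 libraries. Ghrl differed by at most 0.26, with 15.63, 14.61 and 13.69 TPM. Aldh7a1 differed by at most 0.27, with 15.59, 18.06 and 14.09 TPM, the same order of libraries as Hmox1. Rpl18 differed by at most 0.29, with 11.85, 14.41 and 14.21 TPM.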

How the data were processed

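Chromatin RNA of 3 macrophage libraries (1 group, replicate numbers from the labels) was analysed from the tables deposited per library. The deposited gene table gives TPM and expected counts (estimates, not always whole); the first deposited transcript table adds the percent of a gene's abundance on each isoform; a second quantification gives the authors' estimated counts and TPM per transcript, per the file headers. Reads were set against mm10 and GENCODE M21, per the text deposited with the tables. Not given in the sources used here: aligner, counter, versions and use of strand. The labels give fragments of 250 to 400.

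Members were matched by symbol and gene ID. TPM was used as deposited, and TPM rescaled to 1000000 over protein-coding genes for the spread between libraries; a pseudocount of 1 was used on the log2 scale, which understates differences of low genes. Expected counts were rounded for exact 95% Poisson intervals and for edgeR 4.0.16 (TMM) and DESeq2 1.42.0 (size factors) in R 4.3.3. The rest ran in Python 3.11.15 (scipy 1.17.1, pandas 2.3.3, numpy 2.4.6). Intervals and the floor of 3 counts leave out all but counting error, and without molecular identifiers several reads can come from 1 molecule. Depth ran from 10974934 to 21376404 expected counts, of which annotated genes held 98.2% to 99.6%. Recovery of known folds between libraries was tested on simulated counts, and the order and detection steps on small made-up examples. The SD of a gene between libraries was not tested in this way.

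With 1 group there is no comparison between conditions and no p-value. Named genes were all members, the 2 highest and the lowest of each role of the pathway list, the 3 genes most like Hmox1 and the 2 leading isoforms of each member; exceptions are stated where they occur. The members and lists were chosen with earlier results of these data known.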

Additional observations from a re-analysis of the deposited data

How the results depend on the processing

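The number of detected members was 8 and ranged from 6, at a TPM of at least 5, to 9, in the second quantification, with more than 3 counts or without replicate 2. The detected pathway genes numbered 64 and ranged from 45, at a TPM of at least 5, to 70, in the second quantification. The members' median level, 3.31 on the log2(TPM + 1) scale, became 3.96 in the second quantification and 5.399 after rescaling to protein-coding TPM, a larger scale by construction. The 4 resolved neighbouring pairs became 5 in the second quantification and 4 to 6 with 1 library left out. The median SD between libraries, 0.39, ran from 0.23 without replicate 1 to 0.33 without replicate 3, and was 0.43 with TMM scaling and 0.44 with DESeq2 size factors. The median retained-intron share, 72.1% of TPM, was 31.6% by expected counts, which do not divide by isoform length, and 70% in the second quantification. Of the members' mean levels, 7 of 10 moved by more than 1 SD in the second quantification. Levels were higher there in general, with a median ratio to the gene table of 1.88 over the members. That ratio was 1.725 over all protein-coding genes and 1.59 over the detected ones. The share of all genes that moved by more than 1 SD was not counted. Without replicate 1 the mean fell to 91.4 TPM for Nfe2l2, against 165 with all libraries, to 2.04 against 4.18 TPM for Slc7a11 and to 0.075 against 0.14 TPM for Nqo1. No paired analysis was possible because the libraries form 1 group. Isoform shares of genes with few counts, Gclm and Keap1 among them, and the level of Nqo1 are limited by depth.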
